A study of Homo sapiens with 9 samples.

Results

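The 10 genes described here encode intermediate filament proteins of neuronal, progenitor, mesenchymal and epithelial cells. They were taken by name as members of the family, no threshold on a level or a change entered the rule, and all 10 were found among the 60683 gene IDs counted. NEFL, NEFM, NEFH and INA encode the neurofilament light, medium and heavy chains and alpha-internexin. NES encodes nestin and VIM encodes vimentin. KRT8, KRT18, KRT10 and KRT19 encode keratins. Their RNA was measured in HEK293T cells, a long-established line from human embryonic kidney with the SV40 large T antigen. The 3 groups of 3 libraries each were sequenced after depletion of ribosomal RNA. Parental cells had received no reporter. Clone 15 and clone 37 were grown from single sorted cells after piggyBac transposition of a pair of constructs, ATG-(CAG)60-Myc-NLuc, a NanoLuc reporter behind a CAG repeat, with its firefly counterpart without the repeat, ATG-(CAG)0-Myc-FLuc. The labels give low expression of the integrands in clone 15 and high expression in clone 37. Each level is represented by 1 clone, so a property of the clone and the level of the integrand cannot be told apart. All cells were grown in the same medium with serum.

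Intermediate filament proteins share a central rod of coiled coil and assemble into rope-like polymers that give cells mechanical strength. Neurofilament chains polymerise together in axons of mature neurons, with NEFL as the core partner that the longer NEFM and NEFH chains need. Keratins pair obligatorily, 1 acidic chain with 1 basic chain, and KRT8 with KRT18 is the pair of simple epithelia. Vimentin and nestin are typical of mesenchymal cells and of neural progenitors. HEK293 lines are known to express neurofilament genes beside vimentin and simple keratins.

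From RefSeq's promoter table for GRCh38.p14, sequences were examined for 5 of the 10 genes (INA, NES, VIM, KRT8 and KRT10). Promoters of the other genes, NEFL and NEFM among them, were not examined, and this does not mean that the table lacks them. The 250 bases ahead of the start of INA, NES and VIM are shown, because these genes had contrasting values below: INA fell in both clones, while NES and VIM did not pass the test. Capitals mark matches to the GC box GGGCGG or the E-box CAGCTG on either strand. INA is read from chr10:103276888-103277137 on the plus strand, NES from chr1:156677408-156677657 on the minus strand and VIM from chr10:17227991-17228240 on the plus strand.
INA: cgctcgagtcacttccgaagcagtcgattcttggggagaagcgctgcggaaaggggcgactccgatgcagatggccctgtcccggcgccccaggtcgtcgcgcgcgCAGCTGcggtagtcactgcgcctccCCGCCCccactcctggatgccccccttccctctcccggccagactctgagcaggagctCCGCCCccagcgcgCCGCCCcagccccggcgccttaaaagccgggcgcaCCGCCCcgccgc
NES: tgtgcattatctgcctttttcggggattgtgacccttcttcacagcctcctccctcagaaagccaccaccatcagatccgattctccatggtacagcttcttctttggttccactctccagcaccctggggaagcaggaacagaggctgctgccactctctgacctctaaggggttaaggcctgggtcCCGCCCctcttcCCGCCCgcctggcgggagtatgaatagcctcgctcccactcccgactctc
VIM: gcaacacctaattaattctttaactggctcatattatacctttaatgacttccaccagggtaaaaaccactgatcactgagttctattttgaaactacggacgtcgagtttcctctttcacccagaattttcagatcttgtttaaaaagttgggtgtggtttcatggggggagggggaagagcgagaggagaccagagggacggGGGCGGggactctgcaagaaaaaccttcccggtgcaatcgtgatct
These stretches hold 4 GC boxes in INA, 2 in NES and 1 in VIM. With the 50 bases after the start included, as in the table, INA had 35 CG dinucleotides in 300 bases, NES 14 and VIM 10, against a median of 14 over 35116 promoters, and the GC box was found in 44.95% of those promoters. The E-box was found in INA alone of the 5 genes and in 17.95% of all promoters. Of the other motifs searched on both strands, TATAAA (11.53% of promoters) and CCAAT (34.61%) were each found in KRT10 alone of the 5, CCGGAAG (10.26%) in KRT8 alone and TGACTCA (4.949%) in none. GGGCGG was not found in KRT8 or KRT10 in this window. The KRT8 window, chr12:52926420-52926719 on the minus strand, lies inside the KRT8 range given below and not at its outer end. Whether it belongs to the principal transcript was not checked.

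Positions are those of GENCODE 29 on GRCh38. NEFM (ENSG00000104722, chr8:24913012-24919098, plus strand) and NEFL (ENSG00000277586, chr8:24950955-24957110, minus strand) are neighbours on chromosome 8. KRT8 (ENSG00000170421, chr12:52897187-52949954, minus strand) and KRT18 (ENSG00000111057, chr12:52948871-52952901, plus strand) overlap over 1084 bases on opposite strands of chromosome 12. KRT10 (ENSG00000186395, chr17:40818117-40822595) and KRT19 (ENSG00000171345, chr17:41523617-41528308) are both on the minus strand of chromosome 17. INA (ENSG00000148798, chr10:103277163-103290351) and VIM (ENSG00000026025, chr10:17228259-17237593) are on the plus strand of opposite arms of chromosome 10. NEFH (ENSG00000100285, chr22:29480230-29491390, plus strand) and NES (ENSG00000132688, chr1:156668763-156677397, minus strand) stand alone. The counts cover the exons of each gene, UTRs included.

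Gene counts per library ranged from 10334090 to 38093340, and levels are given as CPM, the count scaled to a common library total. Clone 15 was read at 100 bp and to a greater depth, the other groups at 75 bp, so effects of read length and depth cannot be told apart from those of clone 15. The labels do not say that replicates were separate cultures, so p-values measure the spread between these libraries, which may be technical. Of the 6 fibroblast markers listed (COL1A1, COL1A2, DCN, LUM, PDGFRB and THY1), COL1A2 and THY1 were at 0 in all parental and clone 37 libraries. In clone 15, COL1A2 was at 5.59, 12.2 and 56.8 CPM and THY1 at 0.131, 0.244 and 1.23 CPM in replicates 1, 2 and 3. The summed fibroblast list ranged from 35.6 to 38.1 CPM in parental cells, 55.0 to 170 CPM in clone 15 and 19.2 to 21.3 CPM in clone 37. Clone 15 replicate 3 stood apart in these genes, while its LUM, at 1.45 CPM, lay below the parental 1.73 to 2.41 CPM. Values without it are given beside the filament genes and beside the other genes whose call ended or whose value moved most when it was left out. Among all genes parental replicate 2 stood apart from its fellows, with a chi-square over degrees of freedom of 10.2 and 10.3 against replicates 1 and 3, which were at 1.88 with each other, and 19.2% of its read pairs had no feature, against 26.4% and 28.8%. Without it 10027 genes were called in clone 37, against 8903 with it. Clone 15 replicate 2 was at 9.05 and 7.43 against replicates 1 and 3 of that clone, which were at 4.24 with each other. Of the kidney label's 12 nephron epithelium markers, UMOD, AQP2 and SLC12A1 were among those at 0 in every library, and 9 had a mean below 1 CPM in each group. Blood cell markers summed to no more than 2.10 CPM in any library. In bulk RNA, fewer cells that express a gene and less RNA per cell cannot be told apart.

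The neurofilament genes moved in opposite directions in the 2 clones. NEFL and NEFM rose in clone 15 and fell in clone 37, while INA fell in both. Vimentin did not pass the test in either clone and its libraries overlapped between groups, and the keratins changed by less than NEFL and NEFM. Of the 10 genes, 8 passed the filter on low counts, and NEFH and KRT19 did not.

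NEFM, the medium chain, had the widest range over the libraries. It was at 569, 633 and 475 CPM in parental replicates 1, 2 and 3, at 2727, 2646 and 2810 CPM in clone 15 and at 135, 139 and 137 CPM in clone 37. No library of any group overlapped another group, with clone 15 highest and clone 37 lowest. In edgeR's quasi-likelihood test NEFM was 4.77-fold higher in clone 15 than in parental cells (log2 fold change 2.25, SE 0.12, adjusted p = 6.08e-14). In clone 37 it was 4.15-fold lower than in parental cells (-2.05, SE 0.10, adjusted p = 1.65e-09). Between the clones NEFM was 19.8-fold lower in clone 37 (-4.31, SE 0.06, adjusted p = 3.26e-29).

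NEFL, the chain on which neurofilament assembly rests, had the same order. It was at 237, 256 and 213 CPM in parental cells, at 704, 737 and 708 CPM in clone 15 and at 61.0, 61.4 and 59.8 CPM in clone 37. The 3 groups again did not overlap. NEFL was 2.97-fold higher in clone 15 than in parental cells (log2 1.57, SE 0.10, adjusted p = 1.05e-12). It was 3.95-fold lower in clone 37 (log2 -1.98, SE 0.07, adjusted p = 1.00e-12). Between the clones the difference was 11.8-fold (log2 -3.56, SE 0.06, adjusted p = 1.57e-27). Without clone 15 replicate 3, the rise in clone 15 was 1.60 for NEFL and 2.25 for NEFM on the log2 scale.

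INA, a chain that joins neurofilaments in developing neurons, did not follow NEFL and NEFM in clone 15. It was at 17.3, 19.7 and 18.8 CPM in parental cells, at 13.4, 15.1 and 13.3 CPM in clone 15 and at 4.47, 4.64 and 4.37 CPM in clone 37. The groups were in the order parental, clone 15, clone 37, without overlap. INA was 4.22-fold lower in clone 37 than in parental cells (log2 -2.08, SE 0.13, adjusted p = 5.50e-10) and 1.36-fold lower in clone 15 (log2 -0.45, SE 0.12, adjusted p = 0.00252). It was 3.09-fold lower in clone 37 than in clone 15 (log2 -1.63, SE 0.13, adjusted p = 3.63e-11). Its fall in clone 15 remained without replicate 3 of that clone (log2 -0.40, adjusted p = 0.0151).

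NEFH, the heavy chain of mature axons, was close to absent. Its counts were 2, 4 and 0 in parental cells, 2, 3 and 2 in clone 15 and 1, 1 and 1 in clone 37, at or near the limit of 3 counts that a count of 0 allows. No fold change is given for it.

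**Figure D1:**
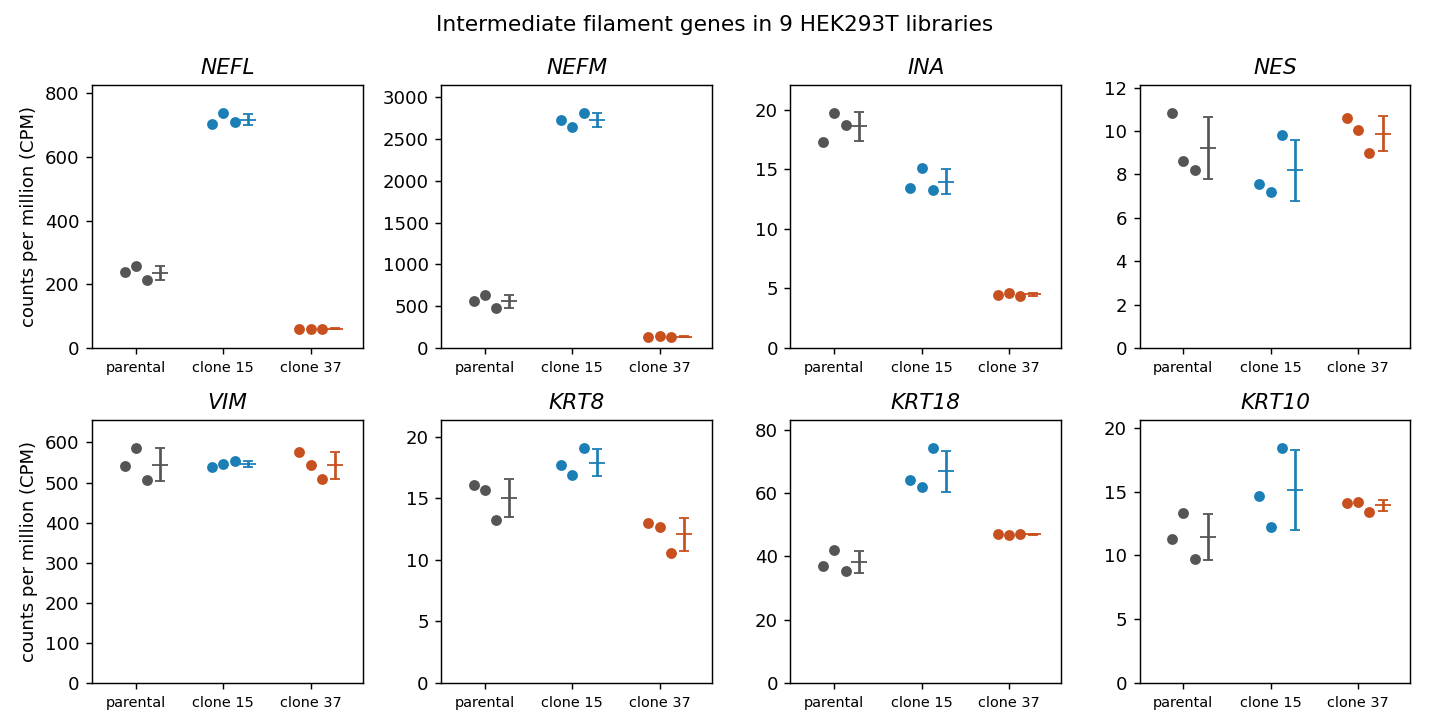
CPM, the count scaled to a common library total (y axis, a linear scale from 0 that differs between panels) of the 8 tested genes in parental cells, clone 15 and clone 37. Each point is a library and each bar the mean with its SD (n = 3): NEFL and NEFM are highest in clone 15 and lowest in clone 37, INA falls from parental to clone 15 to clone 37, and the VIM points overlap between all groups.

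Vimentin was the most even of the tested genes. It was at 542, 586 and 506 CPM in parental cells, at 539, 546 and 554 CPM in clone 15 and at 576, 543 and 509 CPM in clone 37. The libraries of all 3 groups overlapped. The log2 difference from parental cells was -0.032 in clone 37, with a 95% interval of -0.18 to 0.11 (adjusted p = 0.736). In clone 15 it was -0.027, with an interval of -0.21 to 0.15 (adjusted p = 0.825). Between the clones it was -0.0062, with an interval of -0.11 to 0.10 (adjusted p = 0.929). In unstranded counts, where reads shared with antisense genes over VIM are left out as ambiguous, VIM was lower in clone 15 (log2 -0.29, adjusted p = 0.0278) and higher in clone 37 than in clone 15 (0.26, adjusted p = 0.0231). VIM-AS1, an antisense gene that overlaps VIM over 1727 bases, was itself higher in clone 37 than in clone 15 (log2 0.76, SE 0.18, adjusted p = 0.000774). Clone 15 replicate 3, with the highest sum of the fibroblast list, had 554 CPM of VIM, against 539 and 546 CPM in the other 2 replicates. Without it the log2 difference of VIM in clone 15 was -0.021 (adjusted p = 0.882).

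Nestin was at 10.8, 8.63 and 8.19 CPM in parental cells, at 7.56, 7.19 and 9.81 CPM in clone 15 and at 10.6, 10.1 and 8.99 CPM in clone 37. Clone 15 replicate 3 was the highest of its group and lay among the libraries of the other groups. NES did not pass the test in clone 37 (log2 0.08, SE 0.14, adjusted p = 0.653), in clone 15 (-0.20, SE 0.16, adjusted p = 0.294) or between the clones (0.29, SE 0.14, adjusted p = 0.0816). Without clone 15 replicate 3, NES was called higher in clone 37 than in clone 15 (0.41, adjusted p = 0.0148). It was also called after removal of GC and length trends (0.43, adjusted p = 0.00762). Less the median change of its chromosome neighbours it was 0.42, with an adjusted p of 0.00624. That p comes from a normal approximation, which is less strict than the quasi-likelihood test.

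KRT18, the acidic partner of the simple epithelial pair, rose in both clones. It was at 37.1, 42.1 and 35.4 CPM in parental cells, at 64.3, 62.0 and 74.4 CPM in clone 15 and at 47.2, 46.7 and 47.0 CPM in clone 37. The groups did not overlap, and clone 15 was highest. The rise was 1.71-fold in clone 15 (log2 0.77, SE 0.10, adjusted p = 4.65e-07) and smaller in clone 37 (log2 0.27, SE 0.08, adjusted p = 0.00782). Clone 37 was 1.42-fold lower than clone 15 (log2 -0.50, SE 0.07, adjusted p = 1.35e-06). The call in clone 37 was lost without clone 37 replicate 3 (log2 0.24) and without parental replicate 3 (0.17), and in unstranded counts (0.23, adjusted p = 0.0866). Without clone 15 replicate 3, its highest library, the rise in clone 15 was 0.71 (adjusted p = 5.66e-06).

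KRT8, the basic partner, was at 16.1, 15.7 and 13.2 CPM in parental cells, at 17.7, 16.9 and 19.1 CPM in clone 15 and at 13.0, 12.7 and 10.5 CPM in clone 37. No library of clone 37 reached a parental library, and none of clone 15 fell as low as one. KRT8 fell in clone 37 (log2 -0.34, SE 0.12, adjusted p = 0.0242), did not pass the test in clone 15 (0.22, SE 0.12, adjusted p = 0.129) and was 1.48-fold lower in clone 37 than in clone 15 (-0.57, SE 0.11, adjusted p = 7.55e-05). Of the 75-base words of the main KRT8 transcript, 15.69% also occur in 12 KRT8 pseudogenes, and of the 100-base words 5.92%, so its count is uncertain. The effect of read length on it was not tested. The 51 annotated KRT8 pseudogenes held 44.7% to 58.8% of the summed counts of KRT8 and its pseudogenes in parental cells, 50.6% to 57.3% in clone 15 and 51.4% to 63.0% in clone 37. Summed with them, KRT8 was not called in clone 37 (log2 -0.15, adjusted p = 0.240) and was called higher in clone 15 (0.34, adjusted p = 0.00272). With counts thinned to the smallest library total KRT8 was also called higher in clone 15 (0.38, adjusted p = 0.0139), and without clone 15 replicate 3 it was not (0.19, adjusted p = 0.249). The call in clone 37 was also lost with DESeq2 (log2 -0.36, adjusted p = 0.0591), without clone 37 replicate 3 (-0.28) and without parental replicate 1 (-0.30). For KRT18 the shared words were 5.847% at 75 bases and 0% at 100 bases.

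KRT10, a keratin of differentiating epidermis, was at 11.3, 13.3 and 9.72 CPM in parental cells, at 14.7, 12.3 and 18.4 CPM in clone 15 and at 14.2, 14.2 and 13.4 CPM in clone 37. Clone 37 lay above every parental library, and clone 15 overlapped both groups. No comparison passed the test with all libraries and the settings used throughout. The log2 difference from parental cells was 0.25 in clone 37 (SE 0.13, adjusted p = 0.104). For clone 15 the difference was 0.36 (SE 0.16, adjusted p = 0.0638). Without clone 15 replicate 3 the value in clone 15 was 0.22 (adjusted p = 0.256). The value was called in clone 37 without parental replicate 2 (0.39), and in clone 15 without clone 15 replicate 2 (0.52) or without parental replicate 2 (0.51). Unstranded counts gave a call in clone 37 (0.29, adjusted p = 0.0470) and in clone 15 (0.33, adjusted p = 0.0448). In clone 15 it was also called without a filter on low counts (adjusted p = 0.0380) and in the fit of all 9 libraries (adjusted p = 0.0365). Between the clones KRT10 was called only without clone 15 replicate 2 (-0.25, adjusted p = 0.0465). KRT19, a keratin of ductal epithelia, had 0 counts in all parental and clone 37 libraries and 0, 3 and 1 counts in clone 15. None of 14 further keratins passed the filter in any comparison, and together they summed to at most 0.609 CPM in a library.

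**Figure D2:**
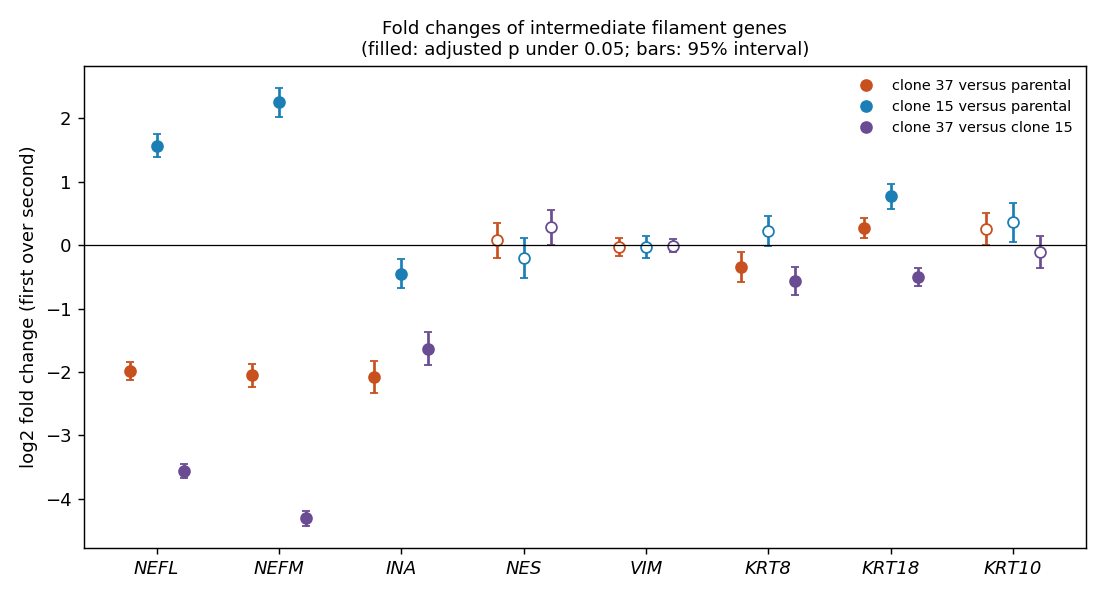
Log2 fold change (y axis) of the 8 tested genes in the 3 comparisons, with bars for the 95% interval and filled points where the adjusted p was under 0.05. NEFL and NEFM lie above 0 for clone 15 against parental and below 0 for clone 37 against parental, INA lies below 0 in every comparison, and VIM lies at 0.

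In clone 37, 5 of the 8 tested genes passed the test, 1 higher and 4 lower. The share called over all 16501 tested genes was 54.0%, with 26.7% higher and 27.3% lower. In clone 15, 4 of 8 passed, 3 higher and 1 lower, against a share of 51.4% over all 17703 tested genes, with 25.1% higher and 26.2% lower. Between the clones 5 of 8 passed, 0 higher and 5 lower in clone 37, against 57.7% over all 17712 tested genes, with 28.7% higher and 29.0% lower. The shares called in either direction were near those of all genes, so these counts are not a result about the filament genes. By size, the change of NEFM in clone 37 was larger than that of 98.3% of tested genes, with 98.1% for NEFL and 98.3% for INA. In clone 15 it was 98.5% for NEFM, 96.3% for NEFL and 59.9% for INA. Between the clones it was 99.5%, 99.2% and 95.7%. VIM was at the other end, with 5.47%, 4.33% and 0.920% of tested genes changed less in these 3 comparisons. The groups did not overlap for 6, 5 and 5 of the 8 genes in these comparisons, against 61.7%, 59.5% and 63.5% of tested genes. The median log2 change of the 8 was -0.19 in clone 37 and 0.29 in clone 15, against 0.02 over all tested genes in both, and -0.53 between the clones, against -0.0015. Without parental replicate 2, the 5 genes called in clone 37 kept their calls, with log2 -1.91 for NEFL, -1.95 for NEFM, -2.03 for INA, -0.31 for KRT8 and 0.35 for KRT18. The 4 called in clone 15 kept theirs, with 1.66 for NEFL, 2.38 for NEFM, -0.38 for INA and 0.87 for KRT18, and KRT10 was called in both clones.

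Levels between genes were compared as CPM per kb of the principal transcript. In parental cells VIM was highest at 255 ± 19 (SD, n = 3), followed by NEFM at 139 ± 19.7, NEFL at 57.6 ± 5.34 and KRT18 at 24.5 ± 2.21. KRT8 at 7.06 ± 0.726, INA at 5.75 ± 0.375 and KRT10 at 5.39 ± 0.846 followed, of which KRT10 overlapped the other 2 and KRT8 did not overlap INA. NES was at 1.66 ± 0.254. In clone 15 NEFM led at 678 ± 20.5, ahead of VIM at 256 ± 3.58 and NEFL at 175 ± 4.38, and KRT8 and KRT10 overlapped. In clone 37 VIM led at 254 ± 15.8, ahead of NEFM at 34.1 ± 0.512, and KRT18 at 30.1 ± 0.152 was above NEFL at 14.9 ± 0.195. INA was the lowest tested gene there at 1.39 ± 0.0427, below NES at 1.78 ± 0.147. With the length of all annotated exons in place of the principal transcript, parental NEFM was at 128 and VIM at 106, so the order of these 2 in parental cells depends on the length used. By that length NEFL at 165 was above VIM at 106 in clone 15, and parental KRT8 at 2.18 was below INA at 5.75 and KRT10 at 5.33. In clone 37 KRT18 at 14.6 was then close to NEFL at 14.0.

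The makeup of the filament RNA shifted with the neurofilaments. NEFL, NEFM, NEFH and INA summed to 813 ± 102 CPM in parental cells, 3458 ± 68.3 CPM in clone 15 and 203 ± 2.43 CPM in clone 37. That was 56.7% ± 1.29, 84.1% ± 0.165 and 24.5% ± 1.13 of the counts of all 10 genes. NES and VIM summed to 554 ± 40.7, 555 ± 8.82 and 553 ± 34.4 CPM, and their share went from 38.8% in parental cells to 13.5% in clone 15 and 66.7% in clone 37. The keratins were the smallest share in each group, at 4.52%, 2.43% and 8.82%.

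**Figure D3:**
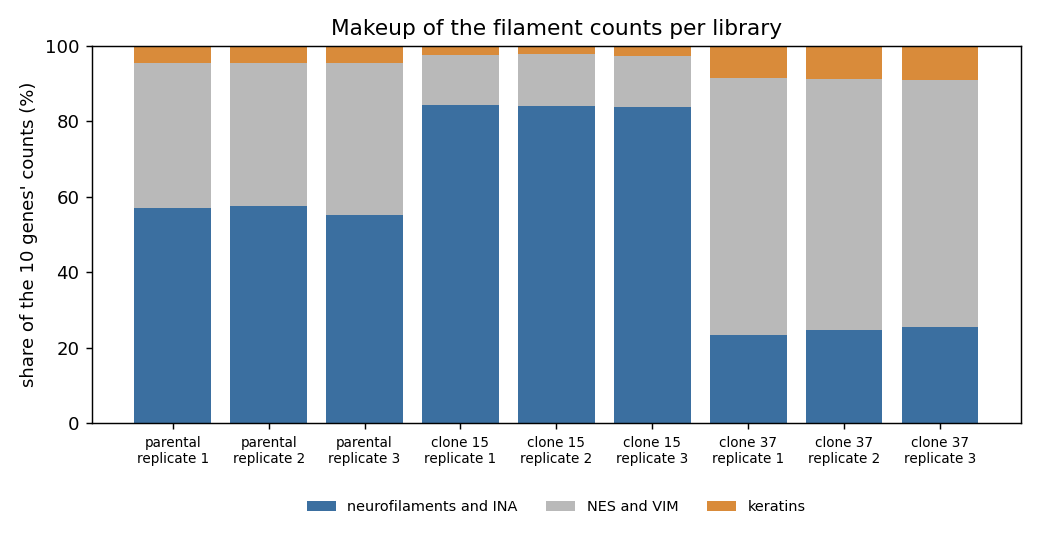
Share of the counts of the 10 genes (y axis, percent) in each of the 9 libraries, stacked as neurofilaments with INA, NES with VIM, and keratins. The neurofilament share is 84.1% on average in clone 15, 56.7% in parental cells and 24.5% in clone 37, and the replicates of a group are alike.

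Ratios were taken for the pairs whose products assemble together and whose genes lie side by side. The ratio of NEFM to NEFL counts was 2.40, 2.47 and 2.24 in parental cells, 3.88, 3.59 and 3.97 in clone 15 and 2.21, 2.27 and 2.30 in clone 37. Every clone 15 library lay above all others (log2 difference from parental 0.69 and of clone 37 from clone 15 -0.75). The two-sided exact permutation test gave p = 0.1 for each, the smallest that 3 against 3 libraries allow, and 0.15 adjusted over 6 comparisons. Clone 37 overlapped parental cells (-0.07, exact p = 0.3). The ratio of KRT8 to KRT18 was 0.434, 0.373 and 0.374 in parental cells, 0.275, 0.272 and 0.257 in clone 15 and 0.275, 0.271 and 0.224 in clone 37. Both clones lay below all parental libraries (log2 difference -0.55 in clone 15 and -0.62 in clone 37, exact p = 0.1 and 0.15 adjusted in each) and overlapped each other (-0.07, exact p = 0.6). The pseudogene copies of KRT8 named above touch this ratio.

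Genes around NEFM and NEFL did not all move with them. Within 2 Mb of the start of NEFM, 23 other genes were tested in clone 37, of which 5 were higher and 5 lower, with a median log2 change of 0.10. In clone 15, 28 were tested, with 11 higher, 5 lower and a median of 0.29. Between the clones 28 were tested, with 3 higher, 15 lower and a median of -0.23. Of all tested genes 54.0%, 51.4% and 57.7% were called in these comparisons. The shares higher and lower were 26.7% and 27.3% in clone 37, 25.1% and 26.2% in clone 15 and 28.7% and 29.0% between the clones. More neighbours were higher than lower in clone 15 and more were lower than higher between the clones, which was the direction of NEFM. The gene nearest to NEFM, AF106564.1 (ENSG00000272163), is an antisense gene that overlaps it over 1706 bases. It was lower in clone 37 (log2 -0.66, SE 0.20, adjusted p = 0.00912). It was also lower in clone 15 (-0.91, SE 0.21, adjusted p = 0.000842), so there it changed in the opposite direction to NEFM. STC1, which encodes the hormone stanniocalcin, fell in both clones (-3.50 and -2.26), and TNFRSF10A, a TRAIL receptor, rose in clone 15 (4.14). TNFRSF10A was at a mean of 0.479 CPM in parental cells and 8.67 CPM in clone 15 and at 0 in all 3 clone 37 libraries, where 3 counts are 0.243 to 0.290 CPM, and it was called lower in clone 37 than in clone 15. The median change of the 100 tested genes nearest to NEFM on its chromosome was 0.04 in clone 37 and 0.12 in clone 15.

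**Figure D4:**
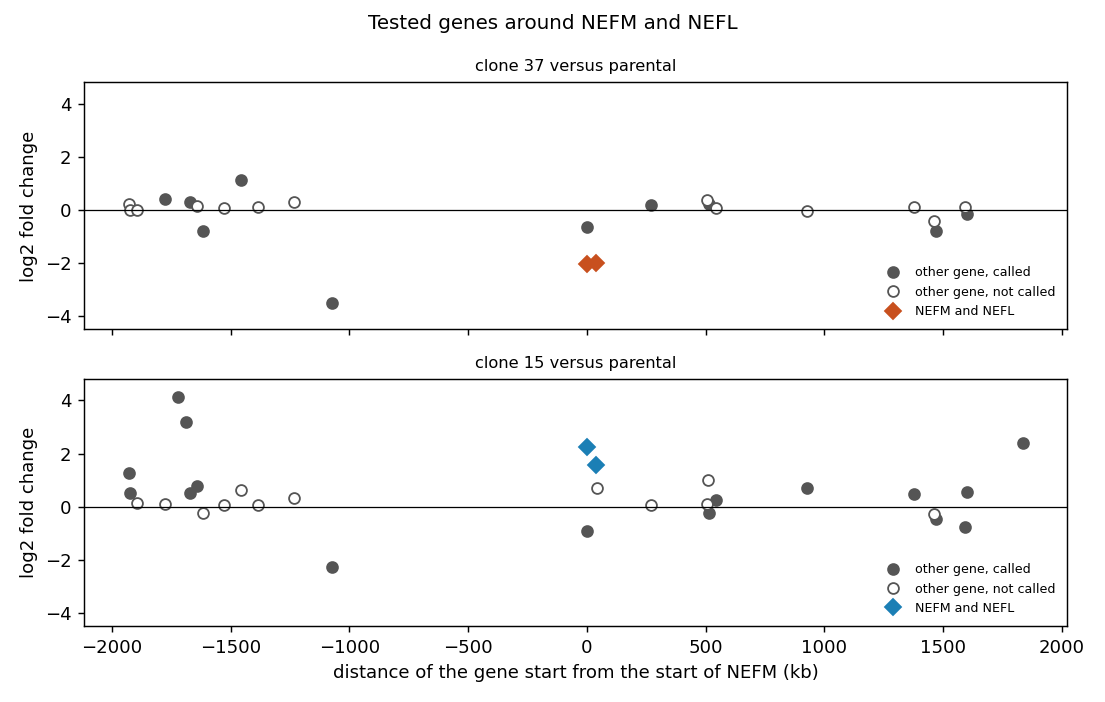
Log2 fold change against parental cells (y axis) of tested genes by distance of their start from the start of NEFM (x axis, kb), for clone 37 above and clone 15 below, with filled circles for called genes and diamonds for NEFM and NEFL. NEFM and NEFL lie near -2 in clone 37 and above 1.5 in clone 15, while most neighbours lie near 0.

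Other genes of the filament system were described by lists, whose counts are to be read against all tested genes, of which 54.0% were called for clone 37, 51.4% for clone 15 and 57.7% for the clones against each other. Among 9 other cytoplasmic filament genes, 6 were tested in clone 37, with 5 higher and 0 lower, and 7 in clone 15, with 1 higher and 0 lower. PRPH, peripherin, a partner of neurofilaments in peripheral neurons, rose in clone 37 (log2 1.77, SE 0.24) where NEFL, NEFM and INA fell, from 1.42 ± 0.225 to 4.90 ± 0.803 CPM. SYNM, synemin, which binds other filaments, also rose there (0.87, SE 0.08). IFFO1, a nuclear filament family member, rose in clone 15 (0.68, SE 0.10). Between the clones 3 of 7 were higher and 2 lower in clone 37, with PRPH (1.60) and SYNM (0.70) the most changed of at least 1 CPM on average. GFAP, the astrocyte filament, was below that level and was lower in clone 37 (-2.12, adjusted p = 0.00106), at a mean of 0.210 CPM against 0.972 CPM in clone 15. The lamins LMNB1 (-0.29 in clone 37 and -0.25 in clone 15) and LMNA (-0.20 in clone 37 and -0.40 between the clones) line the nucleus and were the only called members of that list of 3. The LMNA call in clone 37 was lost without clone 37 replicate 1 or replicate 2 (-0.22 and -0.17), with DESeq2 (adjusted p = 0.0564) and after removal of GC and length trends (adjusted p = 0.0522).

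Genes that anchor filaments at junctions were called in both directions. In clone 37, 2 of 11 tested were higher and 6 lower, in clone 15 it was 1 and 6 of 12, and between the clones 3 and 5 of 10. The shares called were 72.7%, 58.3% and 80%, against 54.0%, 51.4% and 57.7% of all tested genes. The desmosomal cadherins DSC2, DSC3 and DSG2 fell in both clones and were lower in clone 37 than in clone 15. Their log2 changes from parental cells in clone 37 were -1.91 (SE 0.08) for DSC2, -1.54 (SE 0.06) for DSC3 and -1.79 (SE 0.07) for DSG2. In clone 15 they were -0.59 for DSC2, -0.69 for DSC3 and -0.63 for DSG2, and between the clones -1.33, -0.85 and -1.17. PPL, periplakin, which links keratins to desmosomes, fell in clone 37 (-2.90) and clone 15 (-1.19), but was not called in unstranded counts (-0.35 and -0.02). PPL was at a mean of 2.02 CPM in parental cells. The 2 anchors higher in clone 37 were DSP (0.71, SE 0.06), from 385 ± 9.17 to 641 ± 10.3 CPM, and PKP2 (0.34). Neither was called in clone 15, and both were higher in clone 37 than in clone 15 (0.75 and 0.24). Of 15 kinase, chaperone and turnover genes 14 were tested, with 5 higher and 5 lower in clone 37, 3 and 3 in clone 15 and 6 and 5 between the clones. The cochaperone BAG3 rose in both clones (0.83 in clone 37, 0.57 in clone 15), and the kinase ROCK2 fell in both (-0.42 and -0.66). The chaperone HSPB1 fell in clone 37 (-0.90) and did not pass the test in clone 15 (0.24). CDK5, a kinase of neurofilaments, fell in clone 37 (-0.86) and rose in clone 15 (0.46). Both CDK5 (-1.32) and HSPB1 (-1.14) were lower in clone 37 than in clone 15.

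Neuronal markers were called in both directions in each clone. Of 18 markers 12 were tested in each comparison, and TUBB3, STMN2, DCX, ELAVL3, ELAVL4 and CHGA were not. In clone 37, 2 were higher and 6 lower, in clone 15 it was 2 and 5, and between the clones 3 and 5. MAP2, a dendritic microtubule protein, fell in clone 37 (-1.83, SE 0.34), with a log2 difference of -0.60 and no call in clone 15. GAP43, a growth cone protein, fell in clone 37 (-1.76) and clone 15 (-1.13). Its fall in clone 37 was -2.40 without clone 37 replicate 3 and -1.36 without clone 37 replicate 1, and stayed called. RBFOX3, the splicing factor NeuN, went in opposite directions, since it rose in clone 37 (1.14) and fell in clone 15 (-1.26), with a difference of 2.42 between the clones. In unstranded counts that difference was 1.56. UCHL1, a neuronal ubiquitin hydrolase, rose in clone 15 (0.81) and less in clone 37 (0.19). DPYSL3, a cytoskeletal regulator of axon growth, rose in clone 15 (0.54) and was not called in clone 37 (0.02). The median log2 change of the tested markers was -0.27 in clone 37 and -0.23 in clone 15, against 0.02 over all tested genes in both. Of 9 progenitor markers, 0 were higher and 3 of 5 tested lower in clone 37, 0 and 2 of 6 in clone 15, and 0 and 3 of 5 between the clones. SOX9 fell in both clones (-1.11 and -0.78), CDH2 fell in clone 37 (-0.92) and against clone 15 (-0.72), and SOX2 fell in clone 37 (-0.51) and against clone 15 (-0.50). The REST repressor complex silences neuronal genes in other cells. Of its 6 genes 3 were higher and 2 lower in clone 37, none were called in clone 15, and 1 was higher and 2 lower between the clones. RCOR1 fell in clone 37 (-0.39) and against clone 15 (-0.43), KDM1A rose in clone 37 (0.26, and 0.18 and not called without parental replicate 3), and HDAC2 was higher in clone 37 than in clone 15 (0.35).

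Epithelial and mesenchymal markers are given beside the keratins and vimentin. Of 13 epithelial markers 7 were tested, with 3 higher and 4 lower in clone 37, 1 and 2 in clone 15 and 2 and 2 between the clones. The splicing factor ESRP2 fell in both clones (log2 -2.87 and -2.05), as did CDH1, epithelial cadherin (-1.93 and -1.68), while KRT18 rose in both. The 3 markers higher in clone 37 were CLDN4 (1.67), MUC1 (0.69) and TJP1 (0.26), and TJP1 was also higher in clone 15 (0.31). In parental cells TJP1 was at a mean of 146 CPM and CLDN4 at 0.454 CPM. In unstranded counts ESRP2 was -1.71 in clone 37 and -0.77 in clone 15, and without clone 15 replicate 3 it was -1.77 in clone 15, all still called. MUC1 was higher (0.98) and OCLN lower (-0.42) in clone 37 than in clone 15, and MUC1 was not called in thinned counts (0.88, adjusted p = 0.0584). Of 12 mesenchymal markers, 1 of 9 tested was higher and 6 lower in clone 37, 1 and 5 of 12 in clone 15, and 3 and 3 of 10 between the clones. FN1, fibronectin, fell in clone 37 (-2.14, SE 0.07), as did SPARC (-1.02), while VIM did not pass the test. SNAI2 and ACTA2 fell in clone 15 (-1.49 and -1.30) and in clone 37 (-0.61 and -0.90), and SNAI2 was higher in clone 37 than in clone 15 (0.87). In unstranded counts ACTA2 in clone 15 was -0.71. FN1 was lower in clone 37 than in clone 15 (-1.57), where its mean was 144 ± 53.2 CPM. Of the fibroblast list, LUM fell in both clones (-2.35 and -1.43), and COL1A1 fell in clone 37 (-0.85) and was lower than in clone 15 (-1.88). That list had 0 higher and 2 lower of 2 tested in clone 37, 0 and 1 of 3 in clone 15, and 0 and 1 of 2 between the clones. The FN1 and COL1A1 calls between the clones were lost without any 1 replicate of clone 37 (lowest and highest log2 -1.63 and -1.54 for FN1, -1.92 and -1.85 for COL1A1). That of FN1 was also lost with the replicate number as a block (-1.53, adjusted p = 0.0502). Without clone 15 replicate 3 the differences were smaller and still called (-1.25 for FN1 and -1.50 for COL1A1), and the fall of LUM in clone 15 was -1.94. The fall of COL1A1 in clone 37 was not called in the fit of all 9 libraries (-0.85, adjusted p = 0.0939). Whether the clone 15 libraries hold RNA of fibroblasts was not tested, nor was any part of it in the clone 15 values.

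Of 12 nephron markers, 2 of 3 tested were higher and 0 lower in clone 37, 2 and 0 of 4 in clone 15, and 2 and 0 of 3 between the clones. WT1 (log2 1.11, 0.49 and 0.62) and LHX1 (0.96, 0.35 and 0.61) are regulators of kidney development. The clone 15 calls were lost without parental replicate 3 for WT1 (0.35) and LHX1 (0.30), and without parental replicate 1 (0.27) or clone 15 replicate 3 (0.35) for LHX1. LHX1 also lost its call there in unstranded counts (adjusted p = 0.0720) and after removal of GC and length trends (adjusted p = 0.101). Of 7 sympathoadrenal markers, 2 of 3 tested were higher and 0 lower in clone 37, 1 and 0 in clone 15, and 2 and 0 between the clones. HAND2 (0.72) and GATA3 (0.20) were the called genes in clone 37 and CHRNA3 (0.55) in clone 15, and HAND2 (0.44) and GATA3 (0.22) between the clones. The call of GATA3 in clone 37 was lost in 12 of the alternatives run, among them leaving out any 1 replicate but clone 37 replicate 2 (0.13 to 0.20). Between the clones it was lost without clone 15 replicate 3 (0.18) or clone 37 replicate 1 (0.16), and that of HAND2 without clone 15 replicate 1 (0.31), clone 37 replicate 1 (0.40) or clone 37 replicate 2 (0.41). The genes TH, DBH and PHOX2A, which help define the lineage, were not tested. One blood cell marker was tested, and it was not called in any comparison.

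**Figure D5:**
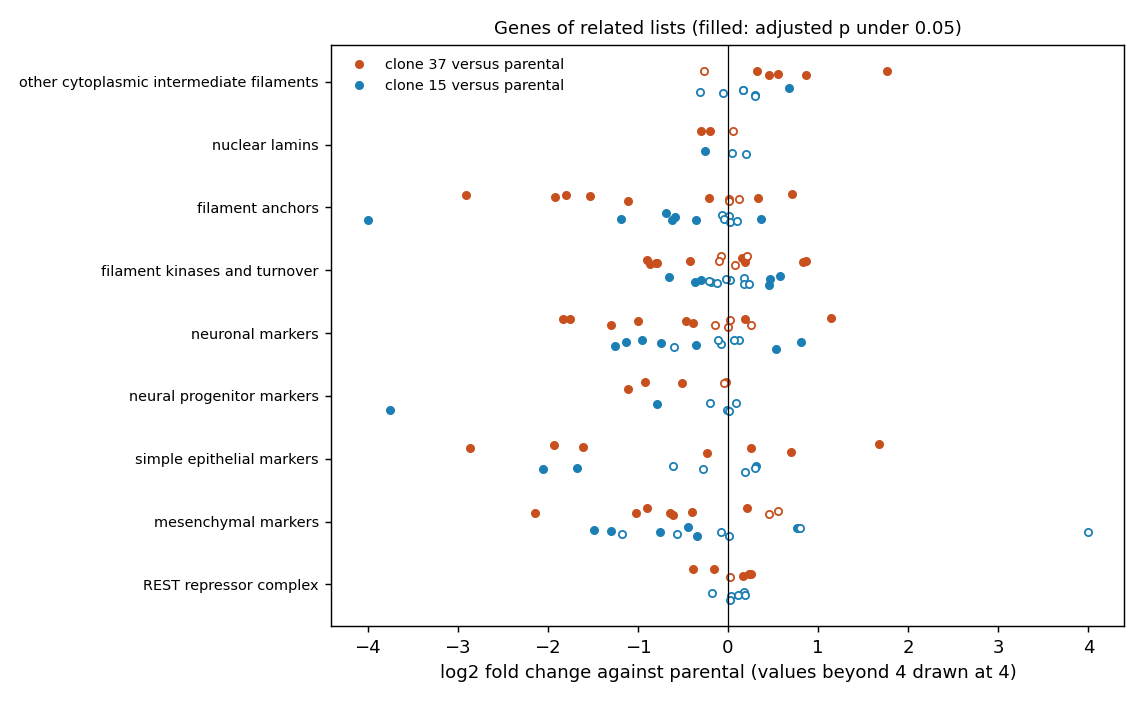
Log2 fold change against parental cells (x axis, values beyond 4 in size drawn at 4) of the tested genes of 9 lists, with filled points where the adjusted p was under 0.05, for clone 37 and clone 15. The other cytoplasmic filaments have no called gene below 0 in either clone, while called anchors and neuronal markers lie on both sides of 0.

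The genes whose levels were most like each filament gene over the 9 libraries were found by Pearson r of log2(CPM + 0.5) among protein-coding genes with a mean of at least 5 CPM. The libraries fall into 3 groups of 3, so r mainly reflects the order of the groups and is a description. For NEFL they were SLIT2, an axon guidance ligand (r = 0.999), the kinase FYN (0.998) and MID2 (0.997). For NEFM they were SHROOM4 (0.998), SLIT2 (0.996) and NEFL itself (0.995). INA was most like DDR2, a collagen receptor, ZC3HAV1L and B4GALT6 (each 0.997). KRT18 was most like MRPL51 (0.991), POLR2G (0.989) and GNPDA1 (0.987), and KRT8 like C1orf115 (0.979), RBSN (0.967) and GMPR (0.956). For KRT10 they were STMN1 (0.961), FAU (0.956) and RPL27 (0.947). The likeness was lower for genes with little change: BTRC (0.836) and TAOK3 (0.806) for VIM, and DUSP18 (0.897), MYO1E (0.853) and GADD45B (0.846) for NES.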

How the data were processed

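RNA from 9 libraries was analysed, 3 each of parental HEK293T cells, clone 15 and clone 37. The authors deposited raw counts per gene, in a file per library that has 1 column without regard to strand and 1 for each strand. The submitters' processing notes name hg38, STAR 2.7.10a and FastQC 0.11.9, and the annotation release was not given in the sources used here. Column 4, the transcript strand, held 92.6% to 94.0% of stranded gene counts and was used. The 4 summary entries were left out of totals and tests. Of read pairs, 19.2% to 34.6% had no feature, the multimapping share was 4.59% to 14.0%, the ambiguous share 3.76% to 4.40% and the unmapped share 1.24% to 5.16%. Clone 15 stood apart, with a multimapping share of 4.59% to 5.98%, against 10.4% to 14.0% in the other groups. Its share with no feature was 33.7% to 34.6%, against 19.2% to 29.9%. Gene counts per library were 10334090 to 38093340, so 3 counts, the limit that a count of 0 allows, are 0.0788 to 0.290 CPM. This covers counting error only, as reads carry no molecular identifiers. Reporter RNA was not analysed here.

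Of 60683 IDs, 60370 had a symbol and 58496 matched GENCODE 29 (GRCh38), which gave positions and lengths. The test was edgeR's quasi-likelihood test (version 4.0.16 in R 4.3.3, robust glmQLFit and glmQLFTest) after filterByExpr and TMM scaling, each comparison on its 6 libraries, with Benjamini-Hochberg adjustment over all genes tested and calls at an adjusted p under 0.05. The SE is the size of the log2 fold change over the square root of F. Ratios were compared by exact permutation tests. The fit was checked on simulated data. Replicates were compared and no pair of libraries agreed within sampling noise (chi-square over degrees of freedom 1.68 to 10.3). Figures used Python 3.11.15 and matplotlib 3.10.9.

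The filament genes and the lists were chosen with earlier results of these data known. All 10 filament genes are named. From each other list the rule names the 2 called genes with the largest change in each comparison, of at least 1 CPM on average, and the 3 most alike genes of each filament gene of at least 1 CPM. AF106564.1, STC1, TNFRSF10A, VIM-AS1, UCHL1, DPYSL3 and the fibroblast genes COL1A2 and THY1 were named after their values were seen. Some genes that the rule selects are not reported here. Alternatives were RLE size factors, DESeq2 1.42.0, filters on low counts, unstranded counts, 1 fit over all 9 libraries, the replicate number as a block, thinned counts, removal of GC and length trends, chromosome neighbours, pseudogene sums and leaving out each replicate. Exon-union length, and these alternatives for the genes and counts of the other lists, were added after seeing the data. GFAP, DSP, PKP2, TJP1 and CLDN4 were named after their values were seen.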

Additional observations from a re-analysis of the deposited data

Results flagged for a closer look

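The clones' changes from parental cells differed from each other, by the test of clone 37 against clone 15, for 5 of the filament genes. The difference on the log2 scale was -3.56 for NEFL, -4.31 for NEFM, -1.63 for INA, -0.57 for KRT8 and -0.50 for KRT18.

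Counts on the strand opposite to a gene entered the comparisons only through the unstranded counts run as an alternative, and were not compared themselves. For KRT8 they had a mean of 24.6 CPM in clone 15 and 15.5 CPM in clone 37, above the parental 12.5 CPM. KRT18 overlaps KRT8 there over 1084 bases. For NEFH they had a mean of 1.37 CPM in clone 37, against 0.628 CPM in parental cells.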

How the results depend on the processing

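The calls and directions of NEFL, NEFM and INA held in every alternative run, with log2 ranges in clone 37 of -2.09 to -1.91, -2.20 to -1.95 and -2.16 to -2.03, and in clone 15 of 1.45 to 1.66, 2.11 to 2.38 and -0.54 to -0.38. Counts of genes called stayed within 1.5 times in every alternative. The number of filament genes called in clone 37 ranged from 3 to 6 when 1 replicate was left out, and was 3 without clone 37 replicate 3. In clone 15 it ranged from 4 to 5, and between the clones from 5 to 6. In unstranded counts the NEFM to NEFL log2 difference was 0.60 in clone 15 and -0.67 between the clones. The cause was not tested. The KRT8 to KRT18 difference between the clones ranged from -0.12 to 0.028 when 1 replicate was left out.

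Values near 0 changed sign. When 1 replicate was left out, VIM ranged from -0.13 to 0.024 in clone 37, from -0.11 to 0.054 in clone 15 and from -0.044 to 0.026 between the clones. NES in clone 37 ranged from -0.039 to 0.19, and KRT10 between the clones from -0.25 to 0.033. VIM between the clones was 0.013 after removal of GC and length trends and 0.26 in unstranded counts. KRT10 between the clones was 0.072 less its chromosome neighbours. The counts of calls in the related lists, many of them small, moved by over 1.5 times in 58 cases and kept within that in 446 when 1 replicate was left out, and in 67 and 689 cases under the other settings.

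Replicate numbers did not pair the libraries: the correlation of same-numbered deviations ranged from -0.16 to 0.02 over 9 pairs. With the number as a replicate block, 8375, 8708 and 10490 genes were called, against 8903, 9092 and 10223 without it, and 5, 4 and 5 filament genes.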
